A study of Arabidopsis thaliana with 4 samples.

Results

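The LFY + UFO list holds peaks of the LEAFY (LFY) transcription factor from a preparation that also received UNUSUAL FLORAL ORGANS (UFO). Its closely paired peaks are 400-bp intervals that overlap a neighbouring interval of the same list. They were chosen from the LFY + UFO list by position alone, as peaks whose start lay less than 400 bp from the previous or next start on the same chromosome. The rule kept 1421 of 18957 LFY + UFO peaks, or 7.50% of the list, and these form 721 neighbouring pairs. The spacing of the paired peaks is therefore what chose them and is given as a description. The presence of their centres in the lists of the mutant protein was not used in the choice.

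LFY is a plant-specific transcription factor that directs the change from shoot to flower and switches on the genes that specify floral organs. It binds DNA as a dimer, and neighbouring LFY sites occur in regulatory regions of several floral genes. UFO is an F-box protein, the part of an SCF ubiquitin ligase that holds the substrate, and it acts with LFY to activate the petal and stamen gene AP3. ASK1 is the SKP1-like adaptor that joins F-box proteins to the rest of the ligase.

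Binding was read by ampDAP-seq. Tagged protein and PCR-amplified genomic DNA are combined in vitro, the protein is pulled down, and the DNA that comes with it is sequenced. Chromatin and DNA methylation are absent from such DNA, so the assay reads binding to naked sequence and not occupancy in a plant. All the DNA came from 2-weeks old wild-type Col-0 seedlings of Arabidopsis thaliana, and the groups differ only in the proteins added. The LFY + UFO group received 5xmyc-LFY with the recombinant ASK1-UFO-3xFLAG complex, the LFY K249R group received 5xmyc-LFY_K249R alone, and the LFY K249R + UFO group received 5xmyc-LFY_K249R with the same complex. K249R is a lysine-to-arginine change in LFY, and the labels state that LFY and its mutant were translated in vitro. An input DNA sample carried no tagged protein, and no peak list of it was used here. No list of unmutated LFY alone was analysed, so a difference between LFY + UFO and LFY K249R combines the change of protein with the absence of UFO.

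Each condition is 1 list of positions with no height or score per peak. Per the labels, a LFY + UFO peak had to occur in 3 of 3 replicates, and a mutant peak in 2 of 2. The LFY K249R list held 9956 peaks and the LFY K249R + UFO list 8577. Because replicates were merged before deposit, the spread between replicates could not be measured and no test between conditions was possible. Intervals beside shares are exact binomial ones (Clopper-Pearson, 95%). They cover counting error alone, because neither peaks nor PCR-amplified reads are replicates. Read depth is unknown, so a centre missing from a list may have been bound below the calling threshold.

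The 721 pairs had spacings above 200 and below 400 bp, with a median of 326 bp and quartiles of 286 and 360 bp. No pair was spaced at 200 bp or less in any of the 3 lists. The narrowest spacing was 212 bp in the LFY K249R list and 220 bp in the LFY K249R + UFO list. Within the LFY + UFO list 680 runs held exactly 2 peaks, 19 runs held 3 and 1 run held 4, and each neighbouring pair within a run was counted. The paired share of each chromosome ran from 7.06% of LFY + UFO peaks on chromosome 1 to 7.81% on chromosome 3. The next LFY + UFO peak beyond a pair lay at a median of 2029 bp. For neighbours spaced 400 to under 800 bp it lay at a median of 1942 bp.

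The mutant lists held fewer overlapping pairs of their own, and also fewer relative to somewhat wider neighbours. Overlapping pairs made up 3.80% of neighbouring pairs in LFY + UFO, 1.31% in LFY K249R and 1.36% in LFY K249R + UFO. For each neighbour spaced 400 to under 600 bp, the LFY + UFO list had 0.965 overlapping pairs (721 against 747). The LFY K249R list had 0.634 (130 against 205) and the LFY K249R + UFO list had 0.736 (117 against 159). The lists differ in length and the ratios have no replicate error, so no test of this difference was made.

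**Figure D1:**
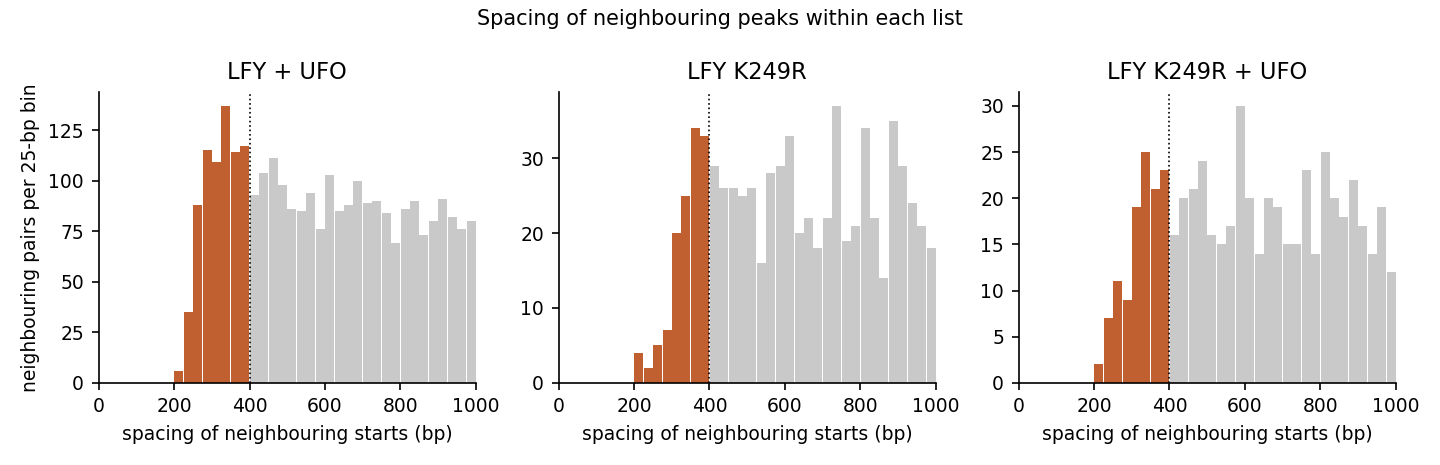
Spacing between the starts of neighbouring peaks in each list, in 25-bp bins up to 1000 bp, with the number of neighbouring pairs on the y axis, whose range differs between panels. Overlapping pairs are orange and the dotted line marks 400 bp. No list has a pair at 200 bp or less, and the LFY + UFO list has 721 overlapping pairs against 130 and 117 in the mutant lists.

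To ask how many of the 2 centres of a pair the mutant protein took, each mutant peak was assigned to its nearest LFY + UFO centre and counted as recovering it when the centres lay within 200 bp. LFY K249R recovered both centres less often than over neighbouring pairs in general, and exactly 1 centre about as often. Exactly 1 was recovered in 373 of 721 pairs, or 51.7% (95% binomial interval 48.0% to 55.4%). Neither centre was recovered in 265 pairs, or 36.8% (33.2% to 40.4%). Both were recovered in 83 pairs, or 11.5% (9.27% to 14.1%). Over all 18952 neighbouring LFY + UFO pairs at any distance the corresponding shares were 49.2% with 1 centre, 31.5% with none and 19.3% with both. The 49.2% lay within the interval of the overlapping pairs.

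With UFO added to the mutant, the share with 1 centre was again near that over all neighbours and the share with both was below it. LFY K249R + UFO recovered exactly 1 centre in 337 pairs, or 46.7% (43.0% to 50.5%), neither in 300 pairs, or 41.6% (38.0% to 45.3%), and both in 84 pairs, or 11.7% (9.40% to 14.2%). Over all neighbouring pairs these shares were 47.6%, 36.3% and 16.2%, and the 47.6% lay within the interval. The share of pairs recovered at both centres was thus below the share over all neighbours in both mutant lists, and both of these background values lay above the intervals of the overlapping pairs. Of the 5 chromosomes, chromosome 2 had the highest share of pairs with both centres in LFY K249R, at 16.9% (20 of 118), and chromosome 1 the lowest, at 7.60% (13 of 171). With UFO the shares ran from 8.77% on chromosome 1 to 17.8% on chromosome 2. The binomial intervals of these chromosomes overlapped in each mutant list.

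Counted as single centres, LFY K249R recovered 529 of the 1421 paired centres, or 37.2% (34.7% to 39.8%). It recovered 44.4% (43.7% to 45.1%) of the 17536 other LFY + UFO centres, and the share over the whole list was 43.9%. LFY K249R + UFO recovered 497 paired centres, or 35.0% (32.5% to 37.5%), against 40.4% (39.6% to 41.1%) of the other centres and 39.9% of the whole list. In both mutant lists the intervals of paired and other centres did not overlap. Centres whose nearest LFY + UFO neighbour stood 400 to under 800 bp away lay between the 2 in recovery. Their share was 42.6% (40.8% to 44.5%) in LFY K249R. With UFO it was 38.9% (37.1% to 40.8%), and this interval overlapped that of the paired centres. Neither mutant list held 830 of the paired centres, or 58.4% (55.8% to 61.0%), against 53.3% of all LFY + UFO centres. A further 94 paired centres were in LFY K249R only and 62 in LFY K249R + UFO only. The latter were 4.36% (3.36% to 5.56%) of the paired centres and 2.73% (2.50% to 2.98%) of the others, while the shares in LFY K249R only were 6.62% (5.38% to 8.03%) and 6.79% (6.42% to 7.17%).

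Recovery of both centres was higher the wider the pair was spaced. In LFY K249R it was 0 of 41 pairs spaced under 250 bp, with an interval of 0% to 8.60%. It was 5.91% (12 of 203) at 250 to under 300 bp and 8.94% (22 of 246) at 300 to under 350 bp. At 350 to under 400 bp it was 21.2% (49 of 231, 16.1% to 27.1%), close to the 19.2% (17.2% to 21.3%) of the 1455 neighbours spaced 400 to under 800 bp. In the 3 wider classes, with limits of 800, 1600, 3200 and 6400 bp, the share stayed between 18.7% and 20.3%.

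LFY K249R + UFO gave the same order. Both centres were recovered in 1 of 41 pairs spaced under 250 bp, or 2.44% (0.0617% to 12.9%). The share was 6.90% (14 of 203) at 250 to under 300 bp, 9.76% (24 of 246) at 300 to under 350 bp and 19.5% (45 of 231, 14.6% to 25.2%) at 350 to under 400 bp. Neighbours spaced 400 to under 800 bp gave 16.0% (14.2% to 18.0%), and the 3 wider classes gave 16.0% to 16.8%. The lower share of overlapping pairs with both centres thus came from those spaced under 350 bp. The share of pairs with at least 1 centre varied less, from 58.1% to 65.8% in LFY K249R and from 50.2% to 64.5% in LFY K249R + UFO over the 4 spacing classes.

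A spacing limit holds within each of the mutant lists. Since those lists hold no 2 peaks 200 bp or less apart, both centres of a narrow pair could be recovered only if the 2 mutant peaks stood more than 200 bp from each other. The part of this limit in the result was not tested. At the edge of the rule itself, 41 pairs were spaced 390 to under 400 bp and 42 were spaced 400 to under 410 bp. Both centres were in LFY K249R for 7 of the former and 5 of the latter, and in LFY K249R + UFO for 4 of each.

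**Figure D2:**
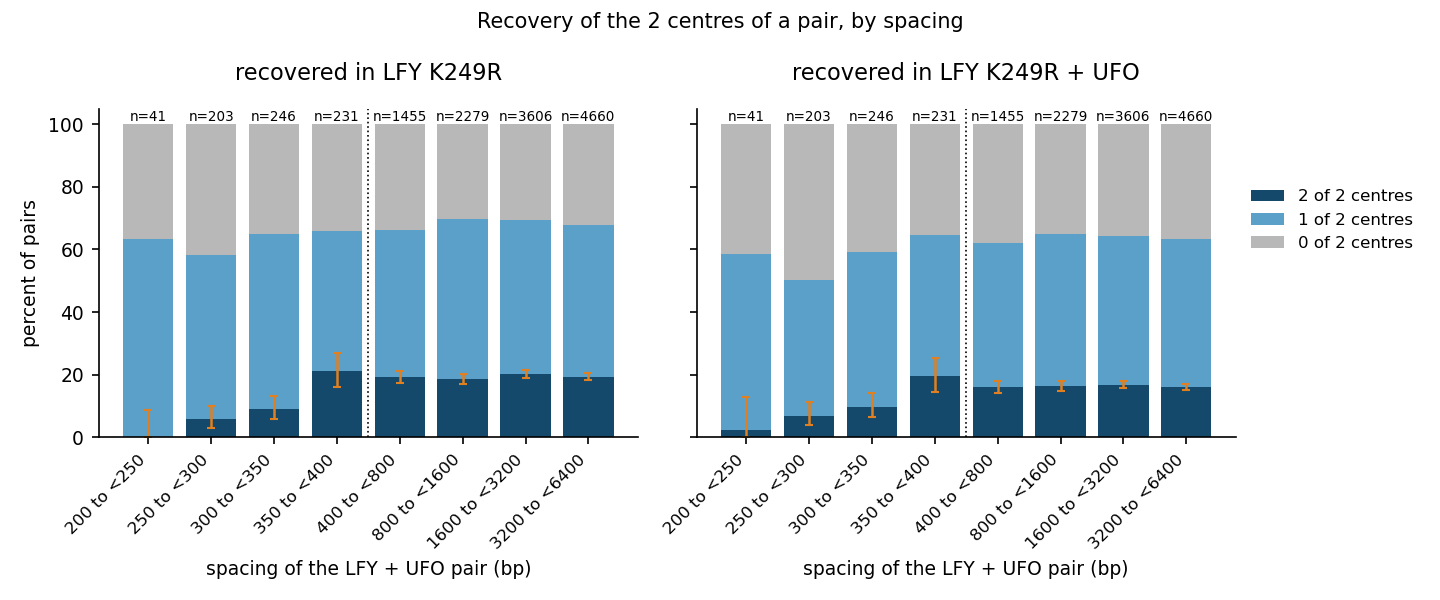
Percent of neighbouring LFY + UFO pairs with 2, 1 or 0 centres recovered in each mutant list, by spacing of the pair, with the number of pairs above each bar. The dotted line separates overlapping pairs from wider neighbours, and orange bars are 95% binomial intervals of the share with both centres. That share is 0% and 2.44% in the narrowest class and 21.2% and 19.5% at 350 to under 400 bp, near the level of wider neighbours.

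The 2 mutant lists mostly took the same centre of a pair. In 286 pairs each mutant list held exactly 1 centre, and it was the same one in 278 of them, or 97.2% (94.6% to 98.8%). Among neighbours spaced 400 to under 800 bp it was the same in 548 of 552, or 99.3% (98.2% to 99.8%). This share lay above the interval of the overlapping pairs, although the 2 intervals overlapped. The recovered centre was the one at the lower coordinate in 182 of the 373 pairs with 1 centre in LFY K249R and in 159 of the 337 with UFO, so neither side prevailed. In all, 573 of the 721 pairs, or 79.5% (76.3% to 82.4%), had the same centres recovered in both lists. Over all neighbouring pairs this share was 81.7%, within that interval. The 573 were 238 pairs with no centre in either list, 278 with the same single centre and 57 with both centres.

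The mutant lists differed in the centres they held for 148 pairs, or 20.5% (17.6% to 23.7%), against 18.3% of all neighbouring pairs. Among the 483 pairs with a centre in either list, the 148 were 30.6% (26.6% to 35.0%). Over all neighbouring pairs with a centre in either list the share was 25.5%, below that interval. Of the 265 pairs with no centre in LFY K249R, 27, or 10.2% (6.82% to 14.5%), had 1 with UFO and none had both, and over all neighbouring pairs 9.84% had at least 1. Of the 456 pairs with at least 1 centre in LFY K249R, 62, or 13.6% (10.6% to 17.1%), had none with UFO, against 11.4% over all neighbouring pairs. Of the 83 pairs with both centres in LFY K249R, 57 kept both with UFO, 24 had 1 and 2 had none. The 57 were 68.7% (57.6% to 78.4%), and over all neighbouring pairs 72.4% kept both. Apart from the 25.5%, each of these background shares lay within the interval of the overlapping pairs. In the opposite direction, 27 of the 84 pairs with both centres in LFY K249R + UFO had only 1 without UFO. The sizes of the 2 mutant lists differ and replicates were merged, so these counts have no replicate error.

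**Figure D3:**
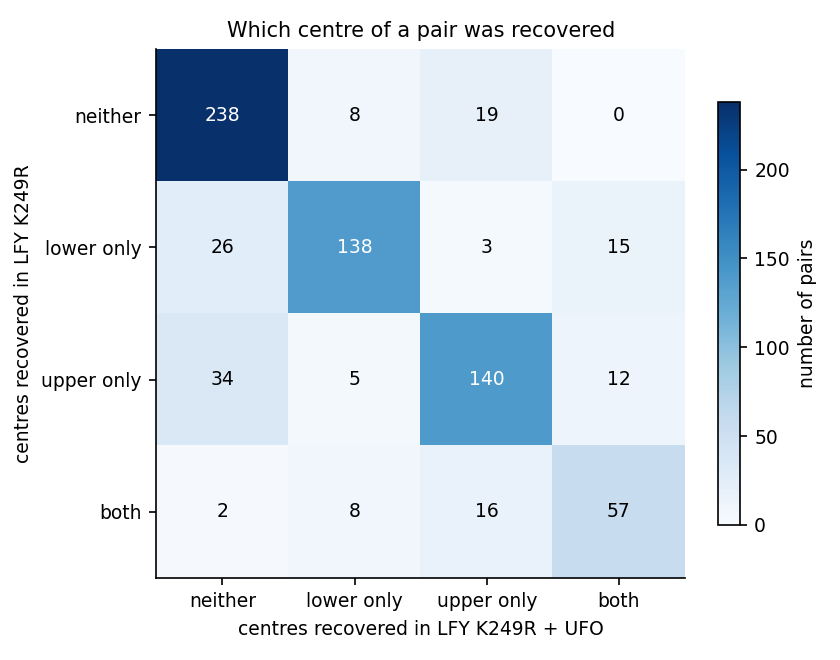
Number of overlapping LFY + UFO pairs by which centre was recovered in LFY K249R (rows) and in LFY K249R + UFO (columns), with lower and upper meaning the smaller and larger coordinate and darker cells holding more pairs. The 4 cells on the diagonal hold 573 of the 721 pairs, and only 8 pairs have the lower centre in one list and the upper centre in the other.

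Where a mutant peak was assigned to a paired centre, it lay on that centre and not between the 2. In pairs with 1 centre in LFY K249R, the mutant centre lay a median of 11 bp from its LFY + UFO centre in either direction. Its median shift towards the unrecovered partner was 1 bp, with quartiles of -8 and 13 bp. It lay in the middle part of the pair, more than 0.333 of the spacing towards the partner, in 9 of 373 pairs, or 2.41%. With UFO these values were 11 bp, 0 bp and 8 of 337 pairs. The other LFY + UFO centres recovered in LFY K249R had a median distance of 10 bp.

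Wide shifts in pairs with 1 recovered centre were mostly directed to the partner. In LFY K249R 28 of the 373 shifts exceeded 50 bp, and 22 of these pointed to the partner and 6 away from it. In LFY K249R + UFO 15 pointed to the partner and 6 away. Where both centres were recovered the few wide shifts did not share this direction, with 1 towards and 5 away in LFY K249R and 3 towards and 5 away with UFO. At the other LFY + UFO peaks the wide shifts towards and away from the nearest neighbour were 222 and 208 in LFY K249R and 193 and 174 in LFY K249R + UFO. Assignment to the nearest centre limits shifts on the inner side of a pair to the midpoint and on the outer side to 200 bp.

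Where both centres were recovered, the median change from the LFY + UFO spacing was a few bp in both mutant lists. The spacing in LFY K249R minus that in LFY + UFO had a median of -4 bp and quartiles of -17.5 and 10.5 bp over 83 pairs. For LFY K249R + UFO the median was -6 bp and the quartiles were -25.3 and 18.5 bp over 84 pairs. The change was at most 20 bp in 55 of the former and in 37 of the latter. It ranged from -69 to 149 bp in LFY K249R and from -74 to 200 bp in LFY K249R + UFO. Counting only mutant centres within 200 bp limits how far the spacing could change. The absence of mutant peaks 200 bp or less apart limits how far it could narrow.

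**Figure D4:**
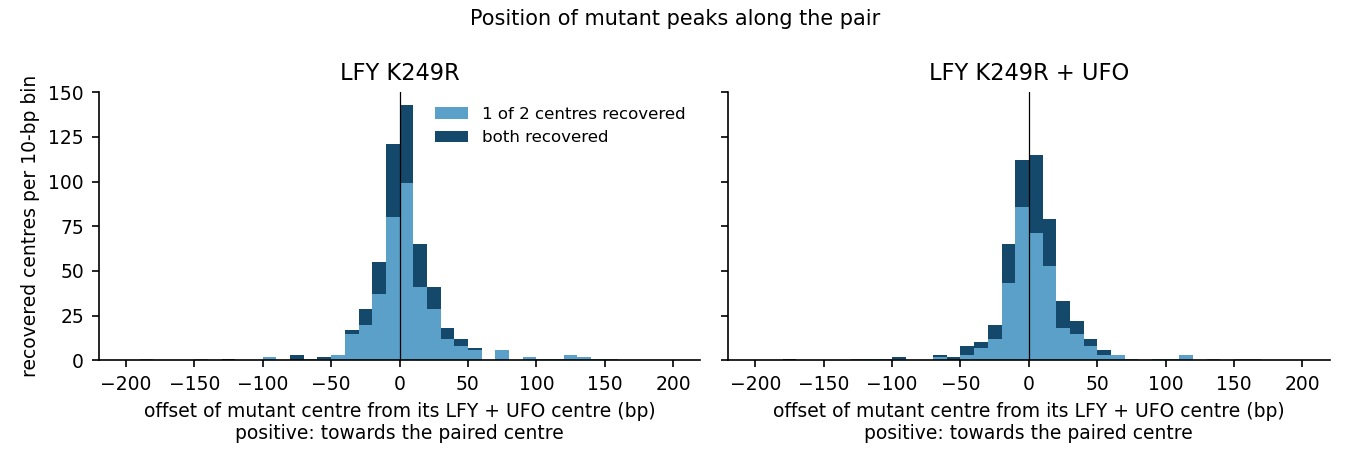
Offset in bp of each mutant centre from the paired LFY + UFO centre it was assigned to, positive towards the other centre of the pair, in 10-bp bins, with the number of recovered centres on the y axis and pairs with 1 or both centres recovered stacked. A centre shared by 2 pairs counts in each. The offsets gather at 0 in both lists, with medians of 0 to 2 bp.

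Seen from the mutant side, overlapping pairs of the mutant lists were matched to LFY + UFO centres as a description. Most mutant peaks have such a centre. The 9956 LFY K249R peaks recovered 8316 LFY + UFO centres, and the 8577 LFY K249R + UFO peaks recovered 7573. How often both peaks matched over all neighbouring mutant pairs was not computed, so the shares below are not set against a background. Of the 130 LFY K249R pairs, 75, or 57.7% (48.7% to 66.3%), fell on the 2 centres of 1 overlapping LFY + UFO pair. Another 39 had 1 peak on a LFY + UFO centre and 1 peak with no LFY + UFO centre within 200 bp, and 9 had no LFY + UFO centre at all. Of the 117 LFY K249R + UFO pairs, 72, or 61.5% (52.1% to 70.4%), fell on 1 overlapping LFY + UFO pair, 28 had 1 peak unmatched and 6 had both unmatched. Mutant pairs with only 1 of their 2 peaks near a LFY + UFO centre therefore existed as well. Both peaks were assigned to the same LFY + UFO centre in only 1 LFY K249R pair and 2 LFY K249R + UFO pairs.

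None of the 20 runs of 3 or 4 overlapping LFY + UFO peaks was recovered in full. Over all 18947 sets of 3 consecutive LFY + UFO peaks, the 3 centres were in LFY K249R in 8.61% and in LFY K249R + UFO in 6.67%, shares at which 20 runs are too few to show a difference. The 20 runs held 61 peaks, of which LFY K249R recovered 24, or 39.3% (27.1% to 52.7%), and LFY K249R + UFO 21, or 34.4% (22.7% to 47.7%). LFY K249R took 2 peaks in 7 runs, 1 peak in 10 and none in 3. With UFO the numbers were 4, 13 and 3. The run of 4, at chr3:10256526-10257976 (TAIR10), had centres 381, 294 and 376 bp apart inside LHCB2.3 (AT3G27690), a light-harvesting protein of photosystem II, and AT3G27700. No LFY K249R peak was assigned to it, and LFY K249R + UFO had 1 peak, on the centre at the highest coordinate.

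The first 4 runs of 3 by position all lie on chromosome 1 and show how the recovered centre varied. In the run at chr1:148191-149257, inside AT1G01390, both mutant lists held the centre at the highest coordinate. At chr1:2318292-2319422, inside TRFL2 (AT1G07540), LFY K249R held that centre and LFY K249R + UFO held none. At chr1:16492510-16493568, between EMB1075 (AT1G43710) and AT1G43720, both mutant lists held the middle centre. At chr1:20505978-20507088, which touches PRP1 (AT1G54970), LFY K249R held the middle and the highest centre and LFY K249R + UFO the middle one. In the runs at chr4:4394639-4395601 and chr5:8331965-8333099, singled out after their values were seen, both mutant lists held the 2 outer centres and not the middle one. The run at chr2:14590153-14591169, also chosen after its values were seen, lies inside PID (AT2G34650), the PINOID kinase that directs auxin transport during flower initiation, and both mutant lists held its middle centre only.

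Gene neighbours were read from gene order in RefSeq TAIR10.1, and the peak positions are in TAIR10 per the submitters' processing notes. Both centres lay inside 1 protein-coding gene in 439 of the 721 pairs, or 60.9% (57.2% to 64.5%). Both lay between the same 2 genes in 207 pairs, or 28.7% (25.4% to 32.2%). In 61 pairs 1 centre was inside a gene and the other outside, in 13 the centres were in 2 different genes, and in 1 a gene lay between them. These pair shares were not computed for wider neighbours, so they cannot be called particular to close pairs. Counted as centres, 66.9% (64.4% to 69.4%) of the paired and 64.5% (63.8% to 65.2%) of the other LFY + UFO centres lay inside a gene, and these intervals overlapped. With genes of any type counted, the shares were 74.0% (71.6% to 76.2%) and 70.5% (69.8% to 71.2%), and the intervals did not overlap. The gene table gives no strand and no exons, so promoters, exons and UTRs were not told apart.

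Pairs between genes were left without a recovered centre less often than pairs inside genes. LFY K249R recovered at least 1 centre of all but 56 of the 207 pairs between genes, so 27.1% (21.1% to 33.6%) had none. Of the 439 pairs inside 1 gene 187, or 42.6% (37.9% to 47.4%), had none. Both centres were recovered in 15.9% (11.2% to 21.7%) of the former and 9.11% (6.59% to 12.2%) of the latter, and these intervals overlapped. With UFO, both centres were recovered in 18.4% (13.3% to 24.3%) of pairs between genes and 7.97% (5.62% to 10.9%) of those inside 1 gene, with no overlap of the intervals. The other LFY + UFO centres differed by location in the same direction.

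At both locations paired centres were recovered less often than other centres. Inside genes LFY K249R recovered 33.3% (30.3% to 36.4%) of paired and 39.7% (38.8% to 40.6%) of other centres. Between genes it recovered 45.1% (40.5% to 49.7%) of paired and 52.9% (51.6% to 54.1%) of other centres. With UFO the shares were 31.4% (28.5% to 34.5%) and 35.7% (34.8% to 36.6%) inside genes. Between genes they were 42.1% (37.6% to 46.7%) and 48.8% (47.5% to 50.01%). In each of these 4 comparisons the 2 intervals did not overlap. For pairs between genes with 1 recovered centre, that centre was the one nearer to a gene in 57 of 118 pairs for LFY K249R and in 48 of 99 with UFO.

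**Figure D5:**
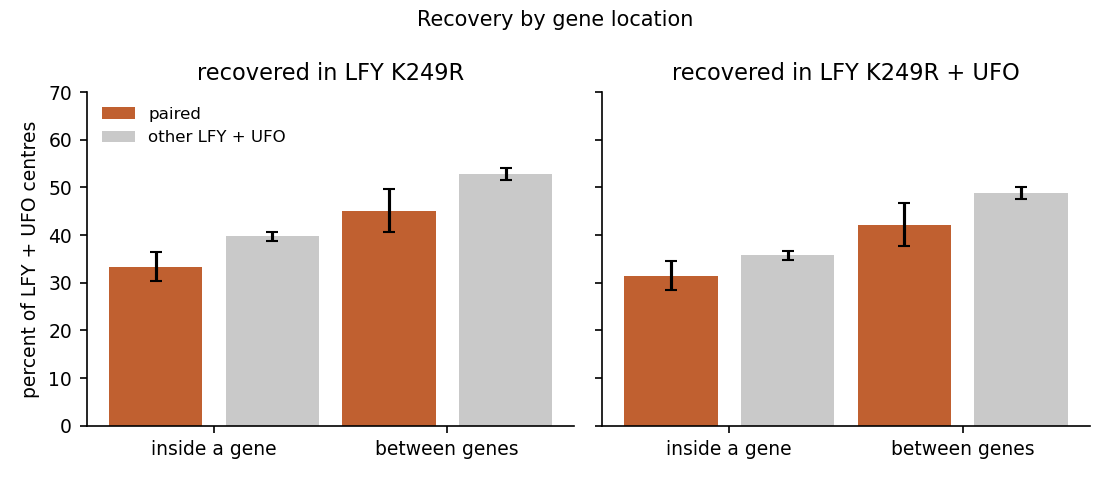
Percent of LFY + UFO centres recovered in each mutant list, for centres inside a protein-coding gene and between genes, with 95% binomial intervals as black bars. Paired centres of all spacings together (orange) lie below the other LFY + UFO centres (grey) at both locations. For LFY K249R they lie at 33.3% against 39.7% inside genes and 45.1% against 52.9% between genes.

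Among 38 regulators of flowering and floral development listed from general knowledge, 33 had a LFY + UFO peak inside them or in the stretch up to the next protein-coding gene. A closely paired peak was present at 2 of them, AP1 and SEP3, or 5.26% of the list. Of all 27444 protein-coding genes 964, or 3.51%, had one, and of the 14875 genes with any LFY + UFO peak it was 6.48%, near the 6.06% of the listed genes with a peak. By group, pairs were present at 1 of 8 floral meristem identity genes (AP1) and at 1 of 11 organ identity genes (SEP3). They were present at none of 8 flowering-time genes, 9 meristem and boundary genes and 2 SCF adaptor genes. AP3 and AG, the petal and stamen and the stamen and carpel identity genes, had 4 LFY + UFO peaks each, none of them overlapping another. LFY had 1 peak and UFO 2, likewise not overlapping.

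AP1 (AT1G69120), the MADS-domain gene that with LFY gives the young meristem its floral identity, had a pair in the stretch between it and AT1G69150. The 2 LFY + UFO intervals were chr1:25986324-25986723 and chr1:25986605-25987004, spaced 281 bp. LFY K249R had a peak centred -3 bp from the lower centre, where a negative value means a lower coordinate, and LFY K249R + UFO had one at -5 bp. Neither mutant list had a peak assigned to the upper centre, the one farther from AP1. The third LFY + UFO peak beside AP1, at chr1:25989489-25989888, was in LFY K249R and not in LFY K249R + UFO.

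SEP3 (AT1G24260), a MADS-domain partner of all classes of floral organ identity proteins, had a pair between it and AT1G24265. Its intervals were chr1:8598358-8598757 and chr1:8598606-8599005, spaced 248 bp. LFY K249R had a peak 21 bp above the lower centre, and LFY K249R + UFO had one 12 bp above it. The upper centre was again in neither mutant list. The 3 other LFY + UFO peaks at SEP3 were in both mutant lists, so the upper centre was the only one of its 5 peaks that the mutant lists lacked.

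Of the 57 pairs with both centres in both mutant lists, the narrowest was spaced 250 bp, at chr2:11482856-11483505 inside ABCG32 (AT2G26910), a transporter needed for the leaf cuticle. The mutant centres there lay -7 and -6 bp from the LFY + UFO centres in LFY K249R and 0 and -3 bp in LFY K249R + UFO. Next was a pair spaced 267 bp inside CLASP (AT2G20190), a microtubule-associated protein, at chr2:8711652-8712318. A pair spaced 275 bp lay at chr1:13462397-13463071 between AT1G36060 and AT1G36070. The pair at chr5:24385594-24386274, spaced 281 bp, had its upper centre inside AT5G60680, next to REV (AT5G60690), a class III homeodomain-leucine zipper gene that patterns meristems and organ polarity. Its mutant centres lay 39 and -30 bp from the LFY + UFO centres in LFY K249R, hence closer together, and 2 and -2 bp with UFO. The fifth pair, spaced 292 bp, lay at chr1:1432976-1433667 between EFE (AT1G05010), an ethylene-forming enzyme, and AT1G05020, and its upper mutant centre was shifted outward by 60 bp without and 50 bp with UFO.

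The 278 pairs with the same single centre in both mutant lists reached narrower spacings. The narrowest, 213 bp, lay at chr3:12792135-12792747 between AT3G31402 and AT3G31430, and both mutant lists held its upper centre, at 21 and 16 bp. A pair spaced 216 bp at chr1:18304970-18305585, between LCR16 (AT1G49435) and AT1G49450, kept its lower centre. So did a pair spaced 226 bp inside AT2G36810 at chr2:15425502-15426127. A pair spaced 228 bp inside AT3G07660 at chr3:2445631-2446258 kept its upper centre. Another pair spaced 228 bp, inside AUG5 (AT5G38880), a subunit of the microtubule-nucleating augmin complex, at chr5:15563966-15564593, also kept the upper one. There the mutant centres lay on the side of the partner, at -75 bp from the upper centre in LFY K249R and -49 bp in LFY K249R + UFO.

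Of the 238 pairs with no centre in either mutant list, the 4 narrowest lay inside genes. They were at chr5:4145794-4146406 in ABAP1 (AT5G13060), an armadillo-repeat and BTB protein linked to DNA replication control, spaced 213 bp, and at chr4:974979-975599 in AT4G02210, spaced 221 bp. The others were at chr1:14016686-14017315 in AT1G36970, spaced 230 bp, and at chr5:4778507-4779141 in FDH (AT5G14780), the mitochondrial formate dehydrogenase, spaced 235 bp. The fifth, spaced 236 bp, lay at chr1:28397913-28398548 between AT1G75620 and AVA-P4 (AT1G75630), which encodes a subunit of the vacuolar proton pump. These 15 pairs were taken by spacing alone within each class and are examples, not a set that stands apart.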

How the data were processed

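Each of the 3 deposited lists holds a chromosome, a start and an end per peak and no score or other value. Every interval is 400 bp wide. The submitters' processing notes name Bowtie2, SAMtools, MACS2 and the build TAIR10, without versions. Thresholds and the use of the input DNA library are not given in the sources used here. Peaks common to all replicates of a condition were kept by the authors, per the labels.

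Samples were grouped by their tagged protein. A peak's position was its interval centre, and positions are printed 1-based. Each mutant peak was assigned to its nearest LFY + UFO centre (ties to the lower coordinate) and counted within 200 bp. The code was tested on simulated lists drawn from the 18957 LFY + UFO peaks, with kept centres moved by at most 50 bp. It made 0 wrong calls in 56871. Since LFY + UFO centres stand more than 200 bp apart, such moves could not change the nearest centre. The test therefore checks the counting only, and wider shifts and unmatched mutant peaks were not simulated.

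Gene names and order came from 27444 protein-coding genes of RefSeq TAIR10.1, whose nuclear chromosomes are those of TAIR10. As a check of register, 64.7% of LFY + UFO centres lay inside a gene, against 58.6% to 59.8% after shifts of 5000 to 50000 bp in either direction. No genome sequence was used here, so the planned motif analysis was not made. The table has no strand, so the planned promoter and upstream windows were replaced by neighbouring genes.

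Genes were named if on the floral list with a pair, in the 5 longest runs, or among the 5 narrowest pairs of 3 recovery classes, and 3 further runs, PID among them, were chosen after their values were seen. The members and lists were chosen with earlier results of these data known. Intervals came from scipy 1.17.1 and figures from matplotlib 3.10.9, under Python 3.11.15 with pandas 2.3.3 and numpy 2.4.6.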

Additional observations from a re-analysis of the deposited data

How the results depend on the processing

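Over 14 results, 66 alternatives were computed, of which 57 stayed within the binomial interval of the reported share or within 1.5 times the reported count. Counting mutant centres within 100 bp, counting any overlap, dropping the exclusive assignment, and keeping only runs of exactly 2 peaks moved none of the shares beyond its interval. Requiring starts at least 100 bp apart removed no pair, so that setting tests nothing. Requiring starts less than 300 bp apart left 244 pairs and 487 paired peaks. Pairs with no centre then made up 41.0% in LFY K249R and 48.4% in LFY K249R + UFO, and pairs with both centres 4.92% and 6.15%. Of the paired centres 31.8% and 28.7% were recovered. This setting keeps the narrowest pairs by construction. Counting genes of any type, an alternative added after the data were seen, placed 74.0% of paired and 70.5% of other centres inside a gene, and their intervals then no longer overlapped. A window of 3000 bp on either side of the listed floral genes, added likewise, gave a count of 2 genes, as reported. The alternatives for the motif CCANTG, for promoter windows and for stranded gene windows were not run, for lack of sequence and strand. No paired analysis was possible because the replicates of every condition were merged before deposit, and no replicate could be left out for the same reason. Unknown depth limits every statement on a missing centre.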
